A study of Mus musculus with 8 samples.

Results

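Regions of mouse intestinal crypt chromatin that carried H3K9ac peaks in several peak lists and no H3K27ac peak in any list numbered 1816. They were found by merging the overlapping H3K9ac peaks (at least 1 bp) of 8 lists on chromosomes 1 to 19, X and Y into 295928 regions. Of these, 22971 had a peak in at least 3 of the 8 H3K9ac lists and are called recurrent here. The 1816 H3K9ac-only regions were the recurrent regions that overlapped no peak of any of the 8 H3K27ac lists, 7.91% of the recurrent regions and 0.614% of all merged regions. The other 21155 recurrent regions overlapped an H3K27ac peak of at least 1 list and served as the comparison. The regions were chosen by the presence of H3K9ac peaks and the absence of H3K27ac peaks in these lists, so their number, their recurrence and their lack of H3K27ac are descriptions without a test.

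CUT&Tag was used, a method that uses antibody-bound transposase to insert sequencing adapters next to a histone mark. Crypts, the stem cell pockets of the gut lining, were taken from the small intestine of male C57BL/6J mice aged 9 weeks. Mice were Fed or fasted for 24 h (Fast), each without tetracycline (-Tetra) or after 21 days of this antibiotic (+Tetra), which gave 4 groups per mark. All mice were of the same strain, and no transgene is named in the labels. Each group was 1 sample with 2 peak lists, numbered 1 and 2 in the deposited names. The labels do not say whether these lists came from different mice, so spread was taken over lists and p-values measure only the spread between lists, which may be technical. The isolation used EDTA shaking and trypsin, without a sort for cell type. At protein-coding gene ends, recurrent H3K9ac regions with H3K27ac lay at 10 of 10 epithelial markers, 7 of 10 crypt stem cell markers, 2 of 10 immune markers, 0 of 10 stromal and endothelial markers, 0 of 10 neural markers and 1 of 10 germline markers.

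H3K9ac and H3K27ac are acetylations of histone H3 tails at lysines 9 and 27. Acetylation at lysine 27 is placed mainly by CBP and p300 and marks active enhancers and promoters, while acetylation at lysine 9 is placed mainly by GCN5 and PCAF and is most abundant around active transcription start sites. Among the recurrent H3K9ac regions here, those without an H3K27ac peak were the exception (7.91%). Among merged H3K9ac regions found in 1 list they were the majority (88.9%). A missing H3K27ac peak means that no peak was called there, and the sequencing depth that would limit such calls is unknown.

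Of the H3K9ac-only regions, 175 covered a RefSeq transcription start for which a sequence window was at hand. The windows of 5 of them are printed because these were the highest ranked H3K9ac-only regions that lay at the end of a protein-coding gene and covered its start in the RefSeq table (GRCm38.p6). Regions were ranked by the number of H3K9ac lists, then by the median rank of their score. Each window runs from 250 bases before to 50 after the start, 5′ to 3′ on the gene's strand. CpG dinucleotides are in capitals.
Ppt1, chr4:122835977-122836276, plus strand: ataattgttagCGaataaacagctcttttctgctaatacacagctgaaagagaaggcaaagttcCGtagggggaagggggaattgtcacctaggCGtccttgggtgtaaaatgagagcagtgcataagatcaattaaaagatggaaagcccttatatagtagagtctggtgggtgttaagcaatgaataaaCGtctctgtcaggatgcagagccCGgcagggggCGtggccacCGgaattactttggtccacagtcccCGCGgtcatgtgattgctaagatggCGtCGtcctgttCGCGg
Dlk2, chr17:46297678-46297977, plus strand: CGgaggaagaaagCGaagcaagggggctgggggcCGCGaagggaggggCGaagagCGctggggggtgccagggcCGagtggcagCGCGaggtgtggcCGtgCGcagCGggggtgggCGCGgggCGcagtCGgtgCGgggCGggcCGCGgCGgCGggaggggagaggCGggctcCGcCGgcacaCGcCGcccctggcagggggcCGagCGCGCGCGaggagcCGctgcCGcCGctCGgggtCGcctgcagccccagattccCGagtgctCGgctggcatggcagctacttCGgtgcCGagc
Zfp658, chr7:43562120-43562419, plus strand: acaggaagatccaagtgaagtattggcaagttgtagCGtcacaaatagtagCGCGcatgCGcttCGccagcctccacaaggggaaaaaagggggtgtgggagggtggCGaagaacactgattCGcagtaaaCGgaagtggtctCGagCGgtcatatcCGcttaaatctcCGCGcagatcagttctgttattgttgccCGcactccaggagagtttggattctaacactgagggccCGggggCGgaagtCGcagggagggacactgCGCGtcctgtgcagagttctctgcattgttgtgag
Spata7, chr12:98627892-98628191, plus strand: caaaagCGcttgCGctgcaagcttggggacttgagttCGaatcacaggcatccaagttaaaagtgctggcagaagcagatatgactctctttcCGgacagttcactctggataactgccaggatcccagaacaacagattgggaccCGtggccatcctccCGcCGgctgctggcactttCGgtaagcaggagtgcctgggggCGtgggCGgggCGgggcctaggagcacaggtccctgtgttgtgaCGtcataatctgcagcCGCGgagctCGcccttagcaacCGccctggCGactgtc
Zfp879, chr11:50841503-50841802, minus strand: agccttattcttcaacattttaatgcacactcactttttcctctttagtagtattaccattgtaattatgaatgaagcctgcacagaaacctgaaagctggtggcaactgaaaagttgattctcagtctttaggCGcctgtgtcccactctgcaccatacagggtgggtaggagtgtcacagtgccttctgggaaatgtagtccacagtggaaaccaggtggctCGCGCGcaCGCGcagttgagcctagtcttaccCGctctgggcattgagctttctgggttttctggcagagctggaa

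The 5 windows differed widely in CpG content. The Dlk2 window held 41 CpG dinucleotides, with 78.3% GC. The Zfp879 window held 7, with 48.3% GC. Ppt1, Zfp658 and Spata7 held 13, 19 and 17. Ppt1 encodes a lysosomal palmitoyl-protein thioesterase and Dlk2 a membrane protein related to Notch ligands. Spata7 encodes a protein of the photoreceptor cilium, and Zfp658 and Zfp879 encode zinc finger proteins. 4 of the windows lay wholly inside their H3K9ac-only region; the Dlk2 window began upstream of its region, chr17:46297916-46299222.

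Most H3K9ac-only regions were found in few lists. Exactly 3 H3K9ac lists held 1433 of the 1816, 4 lists held 243, 5 held 88, 6 held 31, 7 held 12 and all 8 held 9. The share of H3K9ac regions that lacked H3K27ac was lower the more lists held a region. It was 88.9% for regions in 1 list, 59.6% in 2, 21.98% in 3, 6.68% in 4, 3.27% in 5, 1.24% in 6, 0.385% in 7 and 0.1995% in all 8. In 5 or more lists lay 140 H3K9ac-only regions (7.71%) and 59.9% of the recurrent regions with H3K27ac. Just outside the rule stood 13860 regions without H3K27ac in 2 lists and 784 recurrent regions touched by a single H3K27ac list. Among the regions in exactly 3 lists all 56 possible combinations of lists occurred, and 1191 of the 1433 (83.1%) included list 1 of a Fast group. Chosen again without both of those lists, 545 regions met the rule, which still asked for 3 lists and was thus stricter.

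**Figure D1:**
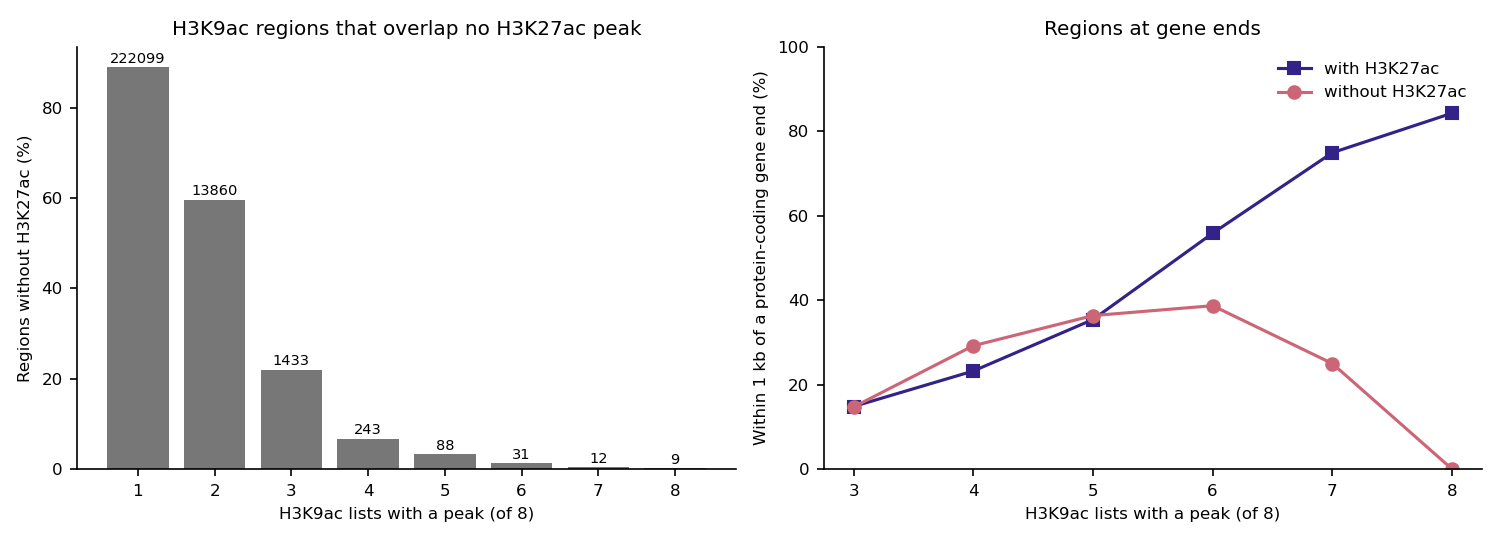
Left, percentage of merged H3K9ac regions that overlapped no H3K27ac peak, by the number of H3K9ac lists with a peak; the number of regions without H3K27ac stands over each bar, and the rule keeps those in 3 or more lists. Right, percentage of regions within 1 kb of a protein-coding gene end, for regions with (squares) and without (circles) H3K27ac; the lines lie together at 3 lists (14.8% and 14.7%) and part from 6 lists on, where the line without H3K27ac rests on 31, 12 and 9 regions.

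H3K9ac-only regions were narrower and of lower rank than the other recurrent regions, by less among regions found in exactly 3 lists. Their median merged width was 910.5 bp, against 1422 bp for recurrent regions with H3K27ac. At equal recurrence the medians lay closer in few lists, at 880 and 941 bp in exactly 3, 1087 and 1104.5 bp in 4 and 1100.5 and 1313.5 bp in 5. They lay further apart in more lists, at 1049 and 1574 bp in 6, 984.5 and 1870 bp in 7 and 862 and 2260 bp in 8. The H3K9ac-only medians there rest on 31, 12 and 9 regions. Within single lists the median width of their peaks lay between 428.5 and 626 bp, and between 749.5 and 1039 bp for the others. The score percentile of a peak is its rank by the authors' score within its own list, where 100 is the highest. The median percentile of a region over its lists had a median of 36.6 for H3K9ac-only regions and 69.6 for the others. Among regions in exactly 3 lists the medians were 34.9 and 47.2. A median percentile of at least 90 was reached by 7 H3K9ac-only regions (0.385%) and by 16.7% of the others. Width and score come from the same peaks that chose the regions and are not tested.

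The 9 H3K9ac-only regions in all 8 lists stood apart from that picture, and 5 of them had median percentiles between 98.0 and 99.97. None lay at a protein-coding gene end. The annotation used here gives gene spans but no exons, so regions inside genes cannot be called exonic or intronic.

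The top region, chr5:114172614-114174198, lay inside Acacb, which encodes the acetyl-CoA carboxylase whose product restrains mitochondrial fatty acid oxidation. Its percentiles in Fed (-Tetra) lists 1 and 2 were 99.991 and 99.943, in Fast (-Tetra) 99.999 and 99.981, in Fed (+Tetra) 99.968 and 99.900 and in Fast (+Tetra) 99.992 and 99.886. It thus ranked among the very highest H3K9ac peaks of every list, while the nearest H3K27ac peak of any list lay 923 bp away. That neighbouring H3K27ac region was called in all 8 H3K27ac lists. The H3K9ac-only region was 1585 bp wide and 26293 bp from the nearer gene end.

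A region inside Auts2, chr5:131519450-131520339, had percentiles between 91.1 in Fed (+Tetra) list 1 and 99.9 in Fast (-Tetra) list 1. Auts2 encodes a nuclear protein that associates with Polycomb complexes. A region inside Ybx3, chr6:131377290-131378113, ranked between 93.4 and 99.9 in 7 lists and at 57.3 in Fed (+Tetra) list 1. Ybx3 encodes a cold-shock domain protein that binds DNA and RNA. A region inside Prkdc, the catalytic subunit of the DNA-dependent protein kinase of DNA end joining, lay at chr16:15642322-15643024. Its percentiles ran from 82.9 in Fed (+Tetra) list 1 to 99.9 in Fast (-Tetra) list 1. Fed (+Tetra) list 1 gave the lowest rank for each of Auts2, Ybx3, Prkdc and Plxdc2. In Fed (+Tetra) list 2 the regions in Acacb, Auts2, Ybx3 and Prkdc were tied at 99.900, so the score does not order them there. The region inside Plxdc2, a gene for a transmembrane protein with a plexin repeat, lay at chr2:16682573-16683434 and ranked between 92.5 and 99.7. Its nearest H3K27ac peak was 91253 bp away, against 3337, 3906 and 3883 bp for the regions in Auts2, Ybx3 and Prkdc. The nearest H3K27ac region was called in 1 list for Plxdc2 and for Auts2, in 3 for Ybx3 and in 8 for Prkdc.

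The other 4 regions in all lists ranked lower and varied more between lists. A region outside genes, chr2:168130742-168131561, lay 29539 bp from Pard6b, a cell polarity gene, and its percentiles spread from 12.2 in Fast (+Tetra) list 1 to 95.5 in Fed (+Tetra) list 2. Regions inside Fam227b (chr2:126147403-126148264), Sepsecs (chr5:52654786-52655697), which acts in selenocysteine synthesis, and Lipc (chr9:70805800-70806505), which encodes hepatic lipase, had median percentiles of 80.2, 77.7 and 59.7. Fed and Fast lists overlapped in rank in each of these regions. The tenth in rank, inside Cyp27a1 (chr1:74719526-74720172), a mitochondrial sterol hydroxylase of bile acid synthesis, was found in all lists but Fed (+Tetra) list 1. Its percentiles ran from 62.4 to 99.2.

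**Figure D2:**
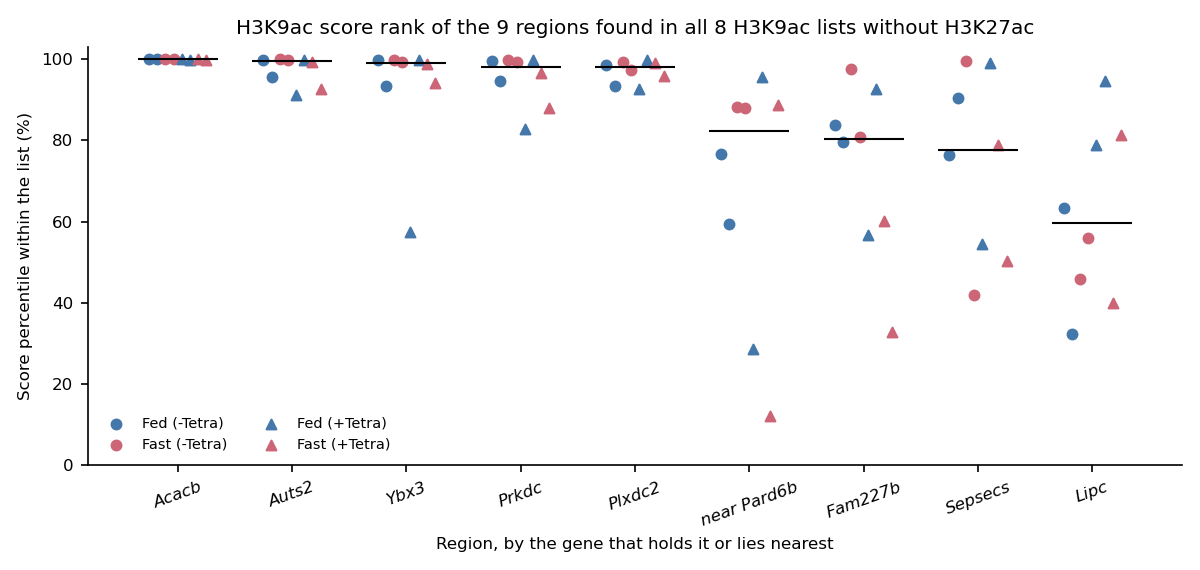
Percentile of the H3K9ac score within each list (vertical axis, 100 is the highest) for the 9 H3K9ac-only regions found in all 8 lists, named by the gene that holds them or lies nearest; points are lists (blue Fed, red Fast, circles without and triangles with tetracycline) and bars are medians. The Acacb region lies between 99.886 and 99.999 in each list, and the 4 regions on the right spread widely.

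Relative to genes, 1222 H3K9ac-only regions (67.3%) touched a protein-coding gene, and 946 (52.1%) did so more than 1 kb from any gene end. A further 541 (29.8%) lay outside protein-coding genes and their ends. At a gene end, within 1 kb of either end of a protein-coding gene, lay 329 (18.1%). For recurrent regions with H3K27ac the share at gene ends was 47.1% and the share outside was 18.4%. The median distance to the nearest gene end was 8434 bp for H3K9ac-only regions and 1666 bp for the others, and it was 9547 and 10095 bp among regions in exactly 3 lists.

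Calculated list by list, 19.9% ± 2.03 (SD, n = 8 lists) of the H3K9ac-only regions in a list lay at a gene end, against 57.3% ± 5.10 of the other recurrent regions. The difference of -37.4 percentage points had the same sign in 8 of 8 lists (exact sign-flip permutation over lists, two-sided p = 0.00781, the smallest this design allows; Benjamini-Hochberg adjusted over 8 tests, 0.0208). Lists share regions, so this p speaks only of the direction across lists. The same holds for the start, CpG and GC tests below. Among regions in exactly 3 lists the difference was -0.83 points (14.7% ± 1.53 and 15.5% ± 3.33, exact permutation p = 0.906), lower in 3 of 8 lists, and the call was lost there. Among regions in 5 or more lists it was -36.5 points (exact permutation p = 0.00781). With only the peaks above each list's median score the difference was -11.4 points, and with equal numbers of best-scoring peaks in every list -20.7 (exact permutation p = 0.00781 in both). Both settings, here and below, also cut the H3K27ac lists. A region without H3K27ac there can overlap an H3K27ac peak that was cut. By number of lists, the shares at gene ends without and with H3K27ac were 14.7% and 14.8% in 3 lists, 29.2% and 23.2% in 4, 36.4% and 35.4% in 5, 38.7% and 55.9% in 6, 25% and 74.97% in 7, and 0% and 84.3% in 8.

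RefSeq transcription starts lay under 11.4% ± 1.98 (SD, n = 8) of the H3K9ac-only regions in a list and 50.5% ± 4.79 of the others, a difference of -39.2 points (exact sign-flip permutation, two-sided p = 0.00781, adjusted 0.0208, lower in 8 of 8 lists). In exactly 3 lists the difference was -2.84 points (7.06% ± 1.41 and 9.89% ± 2.74, exact permutation p = 0.0234, lower in 7 of 8 lists). With only the peaks above each list's median score it was -11.9 points, and with equal numbers of best-scoring peaks -19.9 (exact permutation p = 0.00781 in both). The start table holds 32851 starts and is not complete.

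Below the regions in all lists, the highest ranked H3K9ac-only regions at gene ends were those of Ppt1 (chr4:122835886-122837184), Dlk2 and Icam5 (chr9:21032864-21033909), each in 7 of 8 lists. Icam5 encodes an adhesion molecule of neurons. The Ppt1 region was missing from Fast (-Tetra) list 1, and its percentiles elsewhere ran from 12.3 in Fed (-Tetra) list 1 to 81.9 in Fast (+Tetra) list 2. The Dlk2 region was missing from Fast (-Tetra) list 2 and ranked between 27.2 and 78.8, and the Icam5 region was missing from Fast (+Tetra) list 1 and ranked between 14.4 and 70.3. The missing list thus differed between these 3 regions.

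Regions in 6 lists covered the starts of Zfp658 (chr7:43561924-43563026), Spata7 (chr12:98627645-98628772), Zfp879 (chr11:50840947-50841923), Zfp358 (chr8:3492700-3494344), Steap1, Metrn, Cyp11a1, Itgb3bp, Tmed8 with Samd15, and Ranbp3l. Others in 6 lists lay at ends of Micu3, a regulator of mitochondrial calcium uptake, and Zfp354c, without covering a start of the table. Zfp354c and Zfp879 are neighbours on chromosome 11. The region at Zfp354c (chr11:50827195-50828184) also lay at an end of Zfp879, apart from the region that covered the Zfp879 start. Steap1 encodes a membrane protein of the metalloreductase family, Metrn a secreted protein that acts on nerve cells, and Itgb3bp a centromere protein. The region at Itgb3bp also lay in Efcab7 and was 98913 bp from the nearest H3K27ac peak, while the region at Zfp358 was 543 bp from one. Median percentiles of these 12 regions in 6 lists ran from 25.3 (Zfp358) to 68.7 (Micu3).

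Cyp11a1 encodes the enzyme of the first step of steroid synthesis, and the gut lining is a known site of glucocorticoid production outside the adrenal gland. Its start lay in an H3K9ac-only region, chr9:57997547-57998850, found in all 4 Fed lists and in list 2 of both Fast groups. Its percentiles were 12.6 and 71.5 in Fed (-Tetra), 77.9 in Fast (-Tetra) list 2, 11.8 and 85.9 in Fed (+Tetra) and 27.5 in Fast (+Tetra) list 2. A second H3K9ac-only region of the gene, chr9:57999764-58000367, lay 2041 bp downstream of the start and was found in all 4 Fast lists and no Fed list. This pair was singled out after its values were seen.

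The 175 start regions covered 204 starts of 191 genes, 155 protein-coding and 36 lncRNA. Of the 155, 112 had a single start in the table and 15 had another start under H3K27ac. Somewhere in the gene span, 109 (70.3%) held an H3K27ac peak, against 72.0% of all protein-coding genes. Tnfrsf19, one of the 10 crypt stem cell markers, was among those with another start under H3K27ac: the H3K9ac-only region chr14:61037388-61038268 covered an alternative start in 3 lists, 5121 bp from H3K27ac. Tet1, which encodes an enzyme that oxidises methylated cytosine, has a single start in the table. It lay in a region found in 2 Fed and 2 Fast lists (chr10:62885885-62887652), 15611 bp from H3K27ac. Tet1 and Tnfrsf19 were picked after their values were seen.

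The windows at these starts were rich in GC, as were those of the other recurrent regions. Mean GC was 60.9% in H3K9ac-only regions, 61.7% in recurrent regions with H3K27ac and 53.8% over all starts. The ratio of CpG observed to that expected from base content was 0.630, 0.744 and 0.462. A ratio over 0.6 was found in 60.8% of the windows in H3K9ac-only regions, 75.4% of the others and 35.8% of all. Per list, the mean ratio was 0.654 ± 0.0222 (SD, n = 8) in H3K9ac-only regions and 0.757 ± 0.00659 in the others, lower in 8 of 8 lists (difference -0.10, exact sign-flip permutation, two-sided p = 0.00781, adjusted 0.0208). Among regions in exactly 3 lists the difference was 0.0026 (exact permutation p = 0.781), and the call was lost there. Among regions in 5 or more lists it was -0.034 (exact permutation p = 0.0234), and with only the peaks above each list's median score -0.035 (exact permutation p = 0.00781). Mean GC differed by -0.89 points (exact permutation p = 0.0547, adjusted 0.109, lower in 6 of 8 lists) and by 2.71 points in the opposite direction in exactly 3 lists (exact permutation p = 0.00781).

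**Figure D3:**
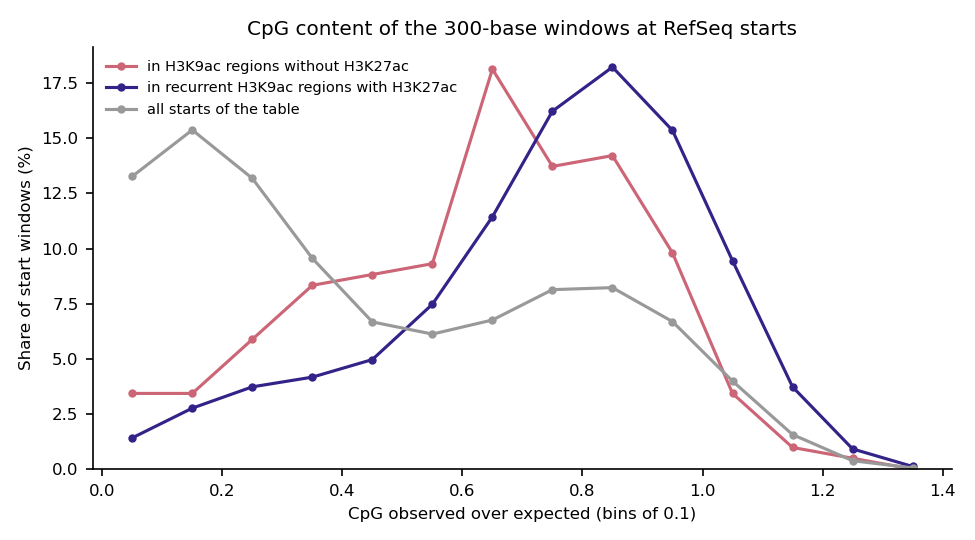
Share of 300-base start windows (vertical axis, %) by CpG observed over expected (bins of 0.1) for starts in H3K9ac-only regions, in recurrent regions with H3K27ac and in the whole table. The H3K9ac-only windows sit to the left of those with H3K27ac and to the right of the mass of all starts; 60.8%, 75.4% and 35.8% exceed 0.6.

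Motifs were searched by exact letters on both strands of the start windows. The ETS motif CCGGAAG was in 8.82% of the windows in H3K9ac-only regions, 19.5% of those with H3K27ac and 8.86% of all. The SP motif GGGCGG was in 59.3%, 66.4% and 35.7%, and the NFY motif CCAAT in 30.9%, 37.8% and 37.4%. The E-box CACGTG was in 12.7%, 10.5% and 7.15%, and the CRE TGACGTCA in 3.92%, 3.33% and 1.79%. TATAAA was in 3.92%, 6.26% and 13.6%, and AGATAA, the GATA motif, in 7.35%, 5.76% and 11.2%. The CDX motif TTTATNG was in 4.90%, 6.48% and 10.9%, and the NRF1 consensus in 1.47%, 2.29% and 0.971%. The YY1 consensus and the HNF4 motif CAAAGTCCA were in 0 of 204 windows in H3K9ac-only regions, against 1.67% and 0.534% of those with H3K27ac. Of the 5 printed windows, Dlk2, Zfp658 and Spata7 hold the SP motif, Zfp658 and Spata7 hold the NFY motif, Zfp658 holds the NRF1 motif and Spata7 the CRE. Motif letters overlap CpG content, and no motif share was tested.

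Over protein-coding genes, 373 of 21887 (1.7%) had an H3K9ac-only region at an end. Zinc finger genes, many of which encode KRAB-type repressors, had one at 14 of 465 (3.01%), among them Zfp658, Zfp354c and Zfp879. Developmental transcription factor genes had one at 5 of 171 (2.92%), namely Foxr1, Hoxa9, Hoxc9, Sox6 and Tbx1. The Tbx1 region (chr16:18589991-18590939) was found in 5 lists, 26814 bp from H3K27ac, with percentiles of 88.5 in Fed (-Tetra) list 2, 86.2 in Fast (-Tetra) list 2, 53.4 and 85.0 in Fed (+Tetra) and 4.44 in Fast (+Tetra) list 2. Among cilium and centrosome genes it was 3 of 60 (5%), namely Bbs5, Bbs7 and Cep162. Bbs5 and Bbs7 encode subunits of the BBSome, which carries cargo in cilia, and their regions were found in 4 and 3 lists.

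Other groups had few. Ribosomal protein genes had 2 of 100 (2%). Mitochondrial ribosomal protein genes had 1 of 78 (Mrpl16), respiratory chain genes 1 of 101 (Ndufa4l2) and solute carriers 5 of 375. Olfactory receptors had 1 of 1110 (Olfr1509), and vomeronasal receptors (355 genes), ubiquitin ligases (205) and Fanconi anaemia genes (11) had 0. Recurrent H3K9ac regions with H3K27ac lay at ends of 49.3% of all protein-coding genes and 0.270% of olfactory receptor genes. The 10 epithelial, 10 crypt stem cell, 10 stromal, 10 neural and 10 germline markers had no H3K9ac-only region at an end. Of the 10 immune markers, 1 had one. Whether other cells in the preparation gave any of these regions was not tested.

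The gap to the nearest H3K27ac peak of any list had a median of 5156.5 bp and ran from 11 to 365850 bp. Within 1 kb lay 287 regions (15.8%), 26 of them within 100 bp, and 559 (30.8%) were more than 10 kb away. The nearest H3K27ac region was called in a single list for 1168 (64.3%) and in all 8 lists for 187 (10.3%). The 140 regions in 5 or more lists had a median gap of 6090 bp. Regions just outside the rule, in 2 H3K9ac lists without H3K27ac, had a median gap of 6181 bp.

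**Figure D4:**
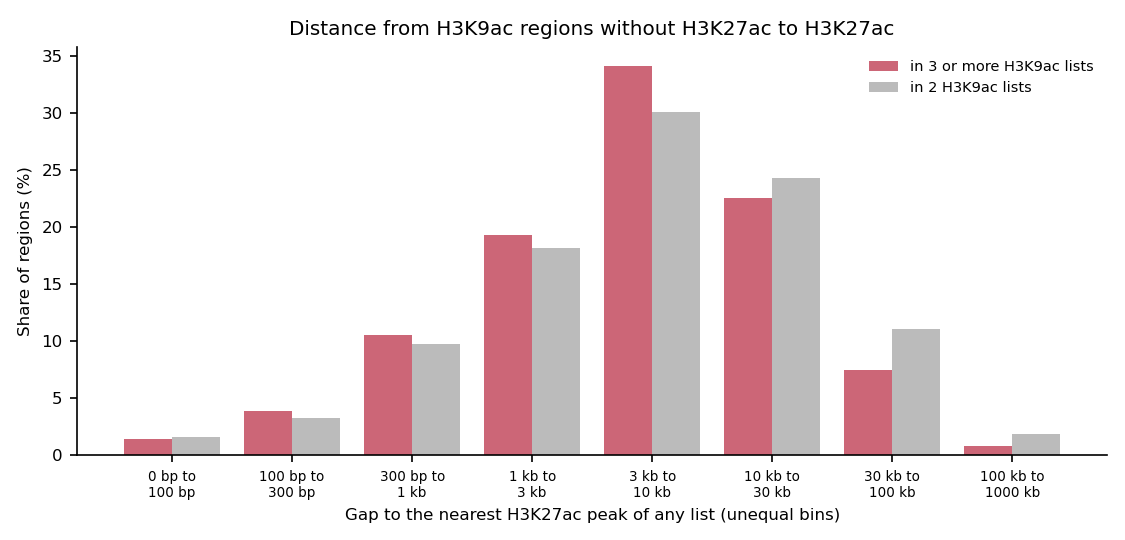
Share of regions (vertical axis, %) by the gap to the nearest H3K27ac peak of any list (unequal bins) for the 1816 H3K9ac-only regions (red) and the 13860 regions without H3K27ac in 2 lists (grey). Both peak between 3 and 10 kb, with 34.1% and 30.1%.

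On single chromosomes the share of recurrent regions without H3K27ac ran from 5.94% (chromosome 3, 64 regions) to 10.4% (chromosome 12, 90 regions), and 0 of the 3 recurrent regions of chromosome Y lacked H3K27ac. Pairs of neighbouring H3K9ac-only regions within 10 kb of each other numbered 51.

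The design asks whether fasting changes the marks, with and without the antibiotic. The choice of regions counted lists whatever their group, so it did not use the feeding or tetracycline labels. Of the 1816 regions, Fed (-Tetra) lists 1 and 2 held 292 and 889, Fast (-Tetra) lists 1066 and 692, Fed (+Tetra) lists 362 and 923 and Fast (+Tetra) lists 1058 and 771. Both Fed lists 1 were low, both Fast lists 1 were high, and Fed and Fast lists overlapped. The mean log2 ratio of Fast over Fed was 0.70 (exact permutation of labels within tetracycline states, two-sided p = 0.278, adjusted 0.370; the smallest possible p is 0.0556), with a pooled SD between lists of 0.79. It was 1.71 over lists 1 and -0.31 over lists 2, so the direction depended on the list number. The number of peaks moved with these counts: there were 17249 and 24643 peaks in Fed lists 1 but 99050 and 97764 in Fast lists 1, against 35889 to 54158 in lists 2. With each list of a mark trimmed to an equal number of its best-scoring peaks, 298 regions met the rule and the log2 ratio was -0.68.

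The share that H3K9ac-only regions made up of all recurrent regions in a list was 2.55% and 4.82% in Fed (-Tetra), 7.05% and 4.92% in Fast (-Tetra), 2.58% and 5.67% in Fed (+Tetra) and 6.32% and 5.39% in Fast (+Tetra). Fast exceeded Fed by 2.02 points on average (exact permutation p = 0.167, adjusted 0.267), by 4.12 points over lists 1 and by -0.091 points over lists 2. With the same number of peaks the difference was -0.059 points. Tetracycline gave a log2 ratio of 0.13 (exact permutation p = 0.667, adjusted 0.762), and the fasting ratio with tetracycline minus that without was -0.11 (exact permutation p = 0.944). None of these tests could pass 0.05 in this design, and none shows that the groups are alike.

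**Figure D5:**
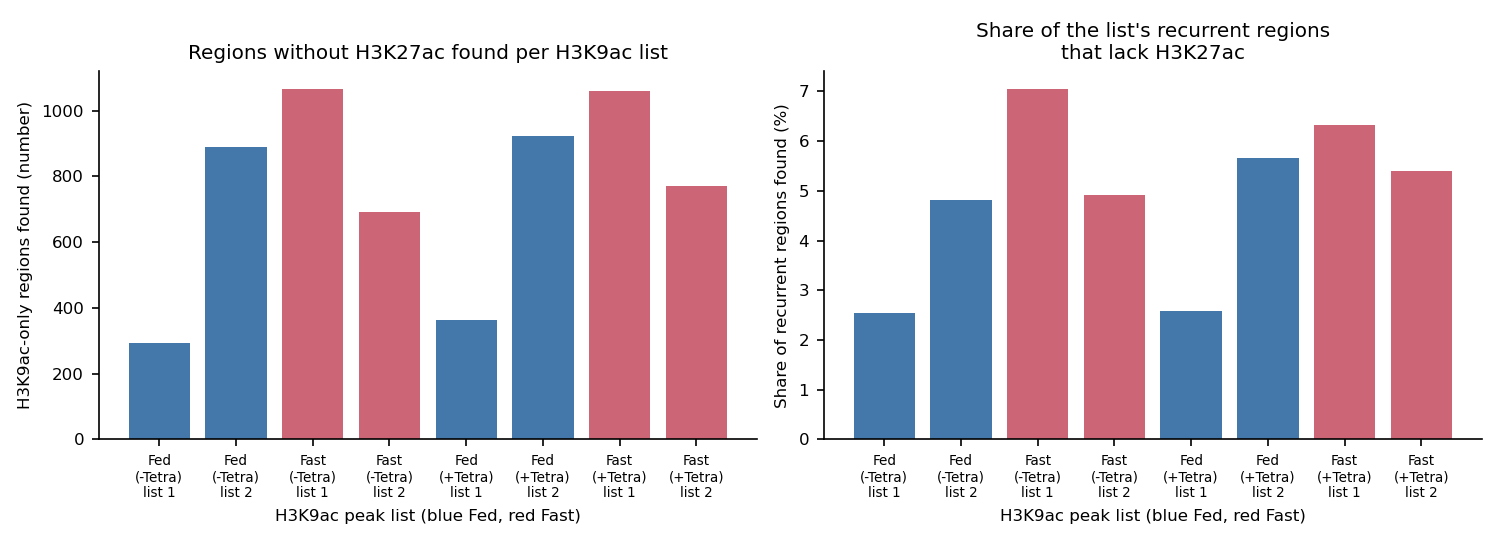
Left, number of the 1816 H3K9ac-only regions with a peak in each H3K9ac list. Right, share (%) they make up of all recurrent regions found in that list; blue bars are Fed and red bars Fast lists. List 1 is the lowest in both Fed groups (292 and 362 regions) and the highest in both Fast groups (1066 and 1058).

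Without tetracycline, 191 H3K9ac-only regions (10.5% of them) had peaks in both Fast lists but no Fed list, a class that held 4.08% of all recurrent regions. In both Fed and neither Fast list were 45 (2.48%), against 3.75% of all recurrent regions. With tetracycline the counts were 227 (12.5%, against 6.02% of all) and 72 (3.96%, against 4.08% of all). The H3K9ac-only regions thus made up 20.4% and 16.4% of the classes found in Fast lists and 5.22% and 7.68% of those found in Fed lists. With equal numbers of best-scoring peaks in every list the direction turned: the Fast counts were 5 without and 10 with tetracycline, and the Fed counts 36 and 26.

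In all 4 Fast lists and no Fed list were 12 H3K9ac-only regions (0.661% of them), against 0.244% of all recurrent regions. In all 4 Fed lists and no Fast list were 2 (0.110%), against 0.187% of all. Chosen again without both Fast lists 1, the counts were 0 and 4, where the 0 follows from the rule, since 2 Fast lists cannot reach 3. With only the peaks above each list's median score they were 1 and 1, and with equal numbers of best-scoring peaks 1 and 3.

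The highest ranked of the 12, chr16:45843119-45844973, covered the only start in the table of Phldb2, which encodes a protein that anchors microtubules at the cell cortex. This region lay inside the gene, 96889 bp from the nearest protein-coding gene end. Its percentiles were 65.0 and 88.8 in Fast (-Tetra) and 30.4 and 85.2 in Fast (+Tetra), and 10746 bp separated it from H3K27ac. The region at the start of Zfp108 (chr7:24254275-24255233) had percentiles of 18.8 and 77.2 in Fast (-Tetra) and 55.5 and 81.3 in Fast (+Tetra). Regions inside Bend4 (chr5:67400936-67402164), Ddhd1 (chr14:45641984-45642807), which encodes a phospholipase, and Frmd4a (chr2:4389292-4390313), which encodes a scaffold of epithelial junctions, followed. In both Fast groups list 1 ranked below list 2 for Phldb2, Zfp108 and Bend4. For Ddhd1 and Frmd4a list 1 ranked above list 2 in Fast (-Tetra), with 77.5 and 20.6 for Ddhd1 and 37.3 and 15.95 for Frmd4a, and below it in Fast (+Tetra). The pair in Fed lists lay inside Dmtn (chr14:70617722-70619037), which encodes an actin-bundling protein, and at a start of the calcium channel subunit gene Cacnb3 (chr15:98634149-98635167). The Cacnb3 percentiles were 7.33 and 73.8 in Fed (-Tetra) and 49.4 and 46.7 in Fed (+Tetra), with H3K27ac 1266 bp away.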

How the data were processed

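Small intestinal crypts were profiled for 2 marks by CUT&Tag in 8 samples with 16 peak lists. The deposited lists give, per peak, a position and a score of at least 50 with no stated unit; the authors called peaks per list with MACS, per the peak names, and downsampled, per the deposited names. The submitters' processing notes name mm10, FastQC, Bowtie and SAMtools. Sample titles name mouse IgG with H3K27ac and rabbit IgG with H3K9ac, so this entry differed with the mark throughout. What the IgG was used for and the caller settings are not given in the sources used here, and depth is unknown. Coordinates are 1-based. Genes and start windows came from RefSeq tables (GRCm38.p6), without exons. All 16 lists were used on chromosomes 1 to 19, X and Y, with 21887 protein-coding genes.

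The list was the unit of spread. Feeding and tetracycline labels were permuted exactly within strata (36 arrangements), and differences between region classes were sign-flipped exactly over 8 lists (256 arrangements), two-sided, with Benjamini-Hochberg adjustment over 8 tests. The counting was tested on simulated lists. Named regions are the first 10 by number of lists and median percentile, the first 15 at gene ends, the first 5 away from them, up to 3 per gene list and up to 5 found in all lists of 1 feeding state; sequences are those of up to 5 named start regions. A few genes that this rule names are not reported here. The regions and gene lists were chosen with earlier results of these data known. Deviations of same-numbered lists were hardly correlated (0.0015 to 0.046). The number of H3K9ac-only regions found did follow the list number, with 292 and 362 in Fed lists 1 and 1066 and 1058 in Fast lists 1. Whether numbers pair lists is therefore not settled. Alternatives changed score, peak number, recurrence, overlap, merging, width, lists and window. The comparisons at exactly 3 and at 5 or more lists, and the choice without both Fast lists 1, were added after the data were seen. Scripts ran in Python 3.11.15 with pandas 2.3.3, numpy 2.4.6, matplotlib 3.10.9 and scipy 1.17.1.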

Additional observations from a re-analysis of the deposited data

Results flagged for a closer look

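Outside chromosomes 1 to 19, X and Y, 9 H3K9ac regions in at least 3 lists overlapped no H3K27ac peak. They lay on 9 of the 100 other sequences with H3K9ac peaks and made up 4.89% of the 184 recurrent regions there, against 7.91% on the chromosomes used. They are given because they lie in sequence that no comparison above uses. They were chosen by the same rule as the other regions, no control lists are at hand to set beside them, and nothing gives the number that would be found without a signal.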

How the results depend on the processing

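Apart from the lists of 1 number alone and regions in exactly 3 lists, the gene-end, start and CpG differences kept their direction and stayed past the threshold in the settings run, over -41.1 to -11.4 points, -41.9 to -11.9 points and -0.16 to -0.034. These settings mix regions found in different numbers of lists, and the cuts on score, peak number and width applied to the H3K27ac lists too. At equal recurrence the gene-end shares without and with H3K27ac were 29.2% and 23.2% in 4 lists and 36.4% and 35.4% in 5. They were lower without H3K27ac from 6 lists on (38.7% and 55.9% in 6). The feeding and tetracycline tests could not pass the threshold in any setting, so their side of it says nothing. Left-out lists aside, 10 values reversed and 38 counts moved by more than 1.5 times. With every list trimmed to an equal number of best-scoring peaks (17249 for H3K9ac, 32392 for H3K27ac), the log2 ratio of Fast over Fed reversed to -0.68, that of tetracycline to -0.25, their interaction to 0.00035 and the share difference to -0.059. In at least 4 lists, the tetracycline ratio was -0.094 and the interaction 0.0027. Without both Fast lists 1 these were -0.018 and 0.019. Among regions in exactly 3 lists the GC difference reversed to 2.71 points and the CpG difference to 0.0026, and the gene-end difference was -0.83.

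The number of H3K9ac-only regions was 971 with the peaks above each list's median score, 298 with equal peak numbers, 15676 in at least 2 lists, 383 in at least 4, 3512 with gaps of up to 500 bp bridged, 557 with peaks of at least 500 bp and 545 without both Fast lists 1. Leaving out each of the 16 lists in turn gave 1001 to 1655 for H3K9ac lists and 1842 to 1999 for H3K27ac lists. The rule of at least 3 lists was kept, so leaving out H3K9ac lists made it stricter. Leaving out an H3K27ac list could only add regions, so these directions followed from the rule. It was 1183 without list 2 of Fed (-Tetra), 1142 without list 2 of Fed (+Tetra), 1010 without list 1 of Fast (-Tetra) and 1001 without list 1 of Fast (+Tetra). The GC difference passed the threshold with peaks above the median (-1.65), equal numbers (-3.04), at least 2 lists (-2.62), no H3K27ac within 1 kb (-1.44), bridged gaps (-1.60), wide peaks (-0.80) and 5 or more lists (-1.32).

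Regions in both Fast and neither Fed list, without and with tetracycline, numbered 70 and 86 with peaks above the median, 5 and 10 with equal numbers, 866 and 1122 in at least 2 lists, 53 and 42 in at least 4, 407 and 537 with bridged gaps, 50 and 51 with wide peaks and 77 and 71 without both Fast lists 1. The reverse class with tetracycline numbered 28 with peaks above the median and 26 with equal numbers. Without and with tetracycline it numbered 146 and 242 in at least 2 lists, 16 and 18 in at least 4 and 21 and 29 with wide peaks. Regions in all 4 Fast and no Fed list numbered 1 with peaks above the median, 1 with equal numbers, 19 with bridged gaps, 4 with wide peaks and 0 without both Fast lists 1. Those in all 4 Fed and no Fast list numbered 1 with peaks above the median, 1 with bridged gaps, 1 with wide peaks and 4 without both Fast lists 1.

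Using the lists of 1 number alone, the ratio of Fast over Fed ran from -0.31 to 1.71, the interaction from -0.32 to 0.10, the tetracycline ratio from 0.11 to 0.15 and the share difference from -0.091 to 4.12. The gene-end difference ran from -39.8 to -35.0, the start difference from -41.5 to -36.8, the CpG difference from -0.11 to -0.097 and the GC difference from -1.04 to -0.73; 4 lists cannot pass the threshold. The both-Fast counts ran from 391 to 913 and from 447 to 884, the both-Fed counts from 139 to 588 and from 188 to 599, the all-Fast count from 94 to 448 and the all-Fed count from 24 to 184, since fewer lists had to be without a peak.

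With the replicate block (same-numbered lists as pairs) the ratio of Fast over Fed was 0.70 with an exact permutation p of 0.50, tetracycline 0.13 (p = 0.25), the share difference 2.02 (p = 0.375) and the interaction -0.11 (p = 1.0), with 0.125 the smallest p possible for 4 pairs and 0.5 for the interaction. The block changed no call. Depth is unknown, so a missing H3K27ac peak cannot be told apart from a shallow list, and recurrence of a region cannot be set against the reads behind it. The cause of the changes was not tested.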
